A study of Mus musculus with 22 samples.

Results

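Hippocampus and cerebellum of the same mice were compared by 3′ RNA-seq. The members are 14 of the 22 libraries of the study, namely the 7 made from hippocampus and the 7 made from cerebellum, chosen by the tissue given in their labels. The other 8 libraries are from cortex and are used here only for comparison of levels. The mice were either wild type (WT) or circTulp4-deficient (CD), a CRISPR-Cas9 model on a C57BL/6 background in which the splice acceptor that forms the circular RNA of the Tulp4 gene was replaced. Hippocampus was taken from 3 WT mice (m162, m240 and m244) and 4 CD mice (m118, m138, m190 and m242), and cerebellum from 4 WT mice (m162, m164, m240 and m244) and 3 CD mice (m118, m190 and m242). 6 mice therefore gave both regions. The paper's transcriptome comparison states fewer mice per region and genotype, without naming them, so it left out some of these libraries. Neither the age nor the sex of these mice is given in the sources used here, and a dissected region holds all of its cell types, without sorting. In such bulk tissue, fewer cells of a type and less RNA per cell cannot be told apart.

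The hippocampus is a forebrain structure built mainly of glutamatergic neurons, the granule cells of the dentate gyrus and the pyramidal cells of areas CA3, CA2 and CA1, with a minority of diverse GABAergic interneurons. It is known for its part in memory and for the plasticity of dendritic spines. The cerebellum derives from the hindbrain. Its cortex holds very many small glutamatergic granule cells, whose axons reach the large GABAergic Purkinje cells, the only output of the cerebellar cortex, together with inhibitory interneurons of its own and the radial Bergmann glia.

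Each gene was represented by 1 transcript record, the one with the highest total. Levels are counts relative to the sum over the records of the 10890 genes tested (cpm, counts per 1000000). They are scaled by trimmed mean of M-values (TMM) factors over the 14 libraries, and levels are compared only within a gene, since these are 3′ counts. A difference is the log2 of cerebellum over hippocampus ± SE, adjusted for genotype, so that a positive value means higher in cerebellum. A gene is called higher in a region if its fold difference was above 2 and its false discovery rate (FDR, Benjamini-Hochberg) in the quasi-likelihood test of edgeR was under 0.01, over all 10890 genes that reached 5 cpm in at least 2 libraries. Over the 1 record per gene of all genes, tested or not, the libraries held 4025499 to 8858937 counts in hippocampus and 4508897 to 7275848 in cerebellum. Over all transcript records they held 17027335 to 36070045 and 19262105 to 31329110. The first principal component held 94.6% of the variance of the 500 most variable genes and placed all hippocampi (-48.4 to -46.4) apart from all cerebella (45.0 to 49.1). Some libraries stood apart within their region. WT hippocampus m244 lay at -13.5 on the second component, which held 0.951% of the variance and on which the other 13 libraries lay between -2.89 and 6.14. CD hippocampus m118 went against its genotype label in 1 measure, the excess of 1 Tulp4 transcript record over another. This excess is in cpm relative to all genes, tested or not, without TMM scaling. The excess was 3.97 cpm (16 counts) against 0.423 to 0.573 in the other CD hippocampi and 2.71 to 3.69 in WT hippocampi. In the cerebellum of the same mouse it was 1.55 cpm, against 0.599 and 2.61 in the other CD cerebella and 3.12 to 13.6 in WT cerebella. The region of CD hippocampus m118 was not in doubt. Without it 2411 genes were called, and without WT hippocampus m244 2446.

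Of the 10890 genes tested, 2448 (22.5%) were called. 1074 of them (9.86%) were higher in cerebellum and 1374 (12.6%) higher in hippocampus. In 3942 genes (36.2%) the 7 libraries of one region did not overlap the 7 of the other, and this held for 2248 of the called genes. Within mice, 2401 of the 2448 differed in the called direction in all 6 animals with both regions. These counts of called genes come from the libraries that gave the calls, so they are a description and not separate support. The differences were often large. They exceeded 4-fold for 381 genes higher in cerebellum and 627 higher in hippocampus, and 16-fold for 107 and 213. The median difference over all genes tested was 0.02, and the median size of a difference, in either direction, was 0.42 on the log2 scale. Of the called genes named below, Grin2a and Rgs9 were the only ones whose libraries overlapped between the regions, Rgs9 was the only one that did not go the same way in all 6 mice with both regions, and the highest FDR was 0.00155, that of Grin2a.

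**Figure D1:**
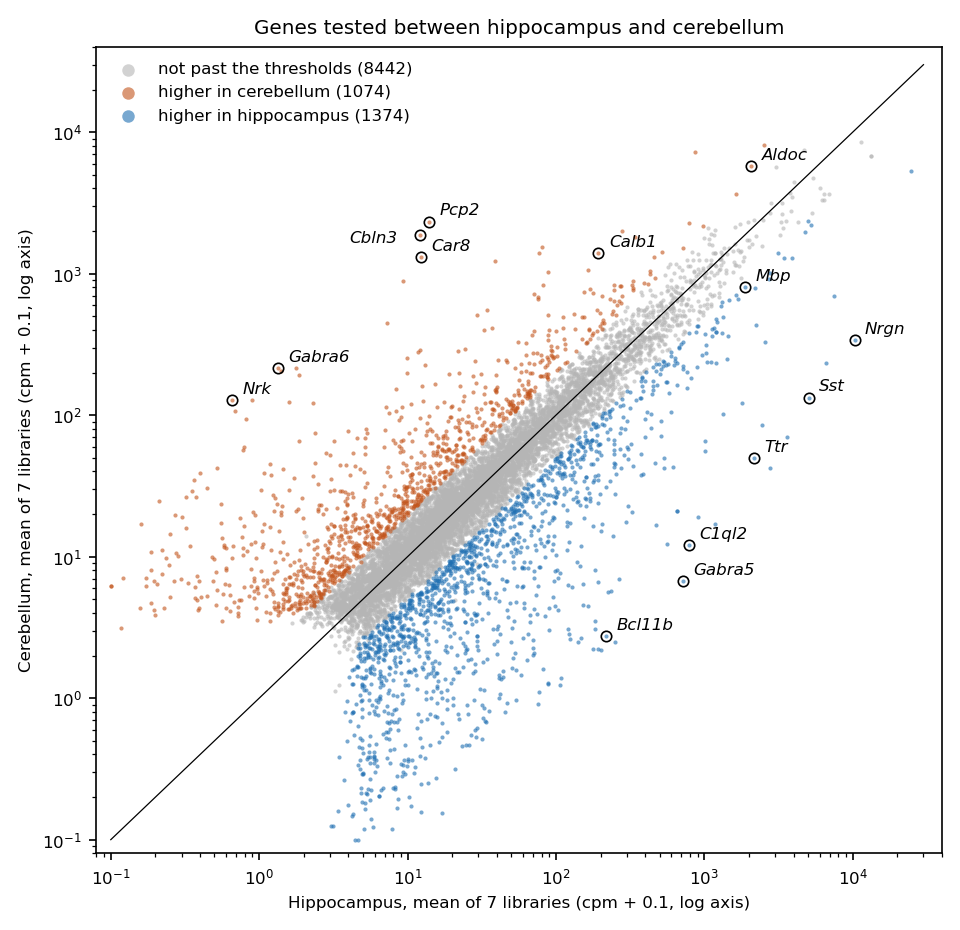
Mean level of each of the 10890 genes tested in the 7 hippocampus libraries (horizontal axis) and the 7 cerebellum libraries (vertical axis), in cpm with 0.1 added, on log axes. Orange points are the 1074 genes called higher in cerebellum and blue points the 1374 called higher in hippocampus. The line marks equal levels, and labelled genes such as Pcp2 and Gabra5 lie about 2 decades off it.

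Among genes with at least 50 cpm in the higher region and the same direction in all 6 mice, the 12 with the largest differences in favour of cerebellum were Nrk, Dao, Pcp2, Gabra6, Cnpy1, Ppp1r17, Cbln3, Hes3, Lhx1os, Car8, Uncx and Cbln1, leaving out predicted genes. Several are classical genes of Purkinje cells. Pcp2, which encodes a Purkinje cell protein that acts on G protein signalling, had 11.1 to 18.6 cpm in hippocampus (median 12.6) and 2100.4 to 2521 cpm in cerebellum (median 2341). No library of one region came near the other, and the difference was 7.38 ± 0.11 (FDR 8.50e-20), or 167-fold. Car8, whose product binds the IP3 receptor, had 8.43 to 15.4 cpm in hippocampus (median 11.8) and 1162 to 1483 cpm in cerebellum (median 1312), a difference of 6.73 ± 0.12. Ppp1r17, a phosphatase inhibitor of Purkinje cells, had 0.724 to 1.79 cpm in hippocampus (median 1.38) and 177 to 242.02 cpm in cerebellum (median 209), a difference of 7.27 ± 0.14.

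The granule cells were represented by Gabra6, Cbln3 and Cbln1 among these 12 genes. Gabra6 encodes the α6 subunit of GABA-A receptors, and had 0.263 to 2.81 cpm in hippocampus (median 1.12) and 199 to 230.1 cpm in cerebellum (median 214), a difference of 7.36 ± 0.19 (FDR 7.49e-17). Cbln1 and Cbln3 encode secreted proteins of the C1q family, of which Cbln1 acts at the synapse of granule cell axons on Purkinje cells. Cbln3 had 10.7 to 14.6 cpm in hippocampus (median 11.1) and 1289 to 2347 cpm in cerebellum (median 1933), and Cbln1 5.07 to 11.8 cpm in hippocampus (median 9.20) and 832 to 946 cpm in cerebellum (median 879). The respective differences were 7.26 ± 0.15 and 6.59 ± 0.13. All 14 libraries fell on the side of their region for these genes, as the plot of single libraries shows.

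Nrk, which encodes a kinase, had the largest difference of the 12, 7.72 ± 0.20, with 0 to 1.38 cpm in hippocampus (median 0.527) and 108 to 145 cpm in cerebellum (median 129). Dao, the D-amino acid oxidase that breaks down D-serine, had 0.242 to 0.870 cpm in hippocampus (median 0.716) and 82.5 to 122 cpm in cerebellum (median 109), a difference of 7.39 ± 0.15. Cnpy1, Hes3 and Uncx are genes known from the patterning of the embryonic midbrain and hindbrain or of neural progenitors, and in these libraries their differences were 7.30, 7.24 and 6.72. In hippocampus these 3 genes stayed at or below 2.33, 2.37 and 2.66 cpm, respectively. Lhx1os is an RNA transcribed opposite to Lhx1 and had a difference of 6.92. Its annotated range (chr11:84525660-84535831) does not overlap that of Lhx1 (chr11:84517975-84525534). Whether counting used strand is not given in the sources used here.

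In favour of hippocampus, 11 leading genes are described, namely Gabra5, Hs3st4, Myo5b, Npy2r, Crym, Icam5, Cpne7, Bcl11b, Lmo3, Slc9a4 and Fibcd1. Gabra5 encodes the α5 subunit of GABA-A receptors, which carries much of the tonic inhibition of pyramidal cells. It had 634 to 766 cpm in hippocampus (median 721) and 5.39 to 8.01 cpm in cerebellum (median 6.86), a difference of -6.74 ± 0.10 (FDR 8.50e-20). GABA-A receptor subunits thus stood among the leading genes of both directions. Icam5, the adhesion protein telencephalin of forebrain dendrites, had 166 to 250.2 cpm in hippocampus (median 194) and 1.15 to 3.16 cpm in cerebellum (median 2.12), a difference of -6.48 ± 0.16. Npy2r, a presynaptic receptor of neuropeptide Y, had 58.9 to 85.3 cpm in hippocampus (median 75.8) and 0.471 to 1.34 cpm in cerebellum (median 0.702), a difference of -6.56 ± 0.14.

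Bcl11b and Lmo3 encode a zinc finger factor and a LIM-domain cofactor. Bcl11b had 183 to 259 cpm in hippocampus (median 207) and 1.81 to 3.34 cpm in cerebellum (median 2.59), a difference of -6.35 ± 0.13. Lmo3 differed by -6.30, and its level in CD hippocampus m138 was 273 cpm against 148 to 167 cpm in the other 6 hippocampi. The remaining genes act in several pathways. Hs3st4 modifies heparan sulfate (-6.67), Myo5b is a motor of recycling endosomes (-6.57), Crym binds thyroid hormone (-6.55), Cpne7 is a calcium-dependent membrane-binding copine (-6.42) and Slc9a4 is a sodium-proton exchanger (-6.19). Fibcd1, a gene typical of CA1, had 36 to 109 cpm in hippocampus (median 96.8) and 0.702 to 1.91 cpm in cerebellum (median 0.963), a difference of -6.18 ± 0.26. Its lowest hippocampus library was WT m244, and the next lowest was at 83.1 cpm.

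**Figure D2:**
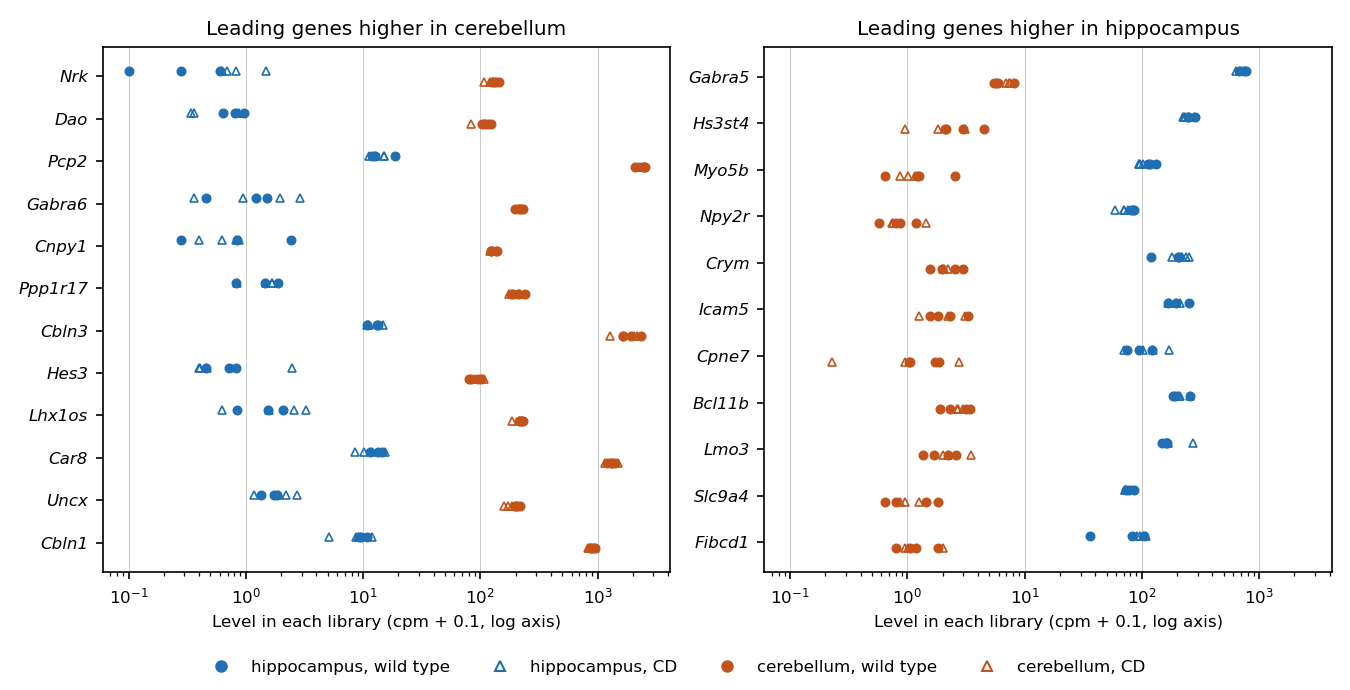
Level in each library, in cpm with 0.1 added on a log axis, of the 12 leading genes higher in cerebellum (left) and 11 higher in hippocampus (right). Blue marks are hippocampi and orange marks cerebella, filled circles WT and open triangles CD. For all 23 genes the libraries of the regions do not overlap, and WT hippocampus m244 is the low point of Fibcd1.

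The leading genes were rarely at 0 in the lower region. For the 12 cerebellar genes the mean level in hippocampus was 0.436% to 1.03% of that in cerebellum, and for the 11 hippocampal genes the mean level in cerebellum was 0.928% to 1.32% of that in hippocampus. In cortex, scaled over all 22 libraries, the same 12 cerebellar genes stood at 0.373% to 1.62% of their cerebellar level. Over all called genes, 120 had a level in the lower region under 2% of that in the higher. What these low levels come from was not tested. 26 called genes had no more than 3 counts in any hippocampus library and 57 no more than 3 in any cerebellum library, and for these a fold difference is only a lower bound.

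Cortex, another forebrain region, held Icam5 at 85.8 to 125 cpm. It held Slc9a4 at 0.398 to 3.05 cpm, Npy2r at 1.35 to 3.50 cpm and Fibcd1 at 4.33 to 9.80 cpm. For all 11 hippocampal genes named above the highest cortex level was below the lowest of the 7 hippocampi. These cortex levels are given as values, without a test.

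The promoters of 4 genes with large opposite differences are shown to let their sequences be read beside the levels. Gabra6 and Gabra5 are the receptor subunits among the leading genes of each direction, Pcp2 is the Purkinje cell gene above, and Nrgn encodes the calmodulin-binding neurogranin of forebrain spines, described below. Each run is 300 bases, 250 before to 50 after the annotated start, 5′ to 3′ on the strand of the gene, from RefSeq on GRCm38.p6 (mm10). For Gabra5 this is 1 annotated start, and it lies inside the annotated range of the gene. All 4 genes lie on the minus strand, at chr11:42321023-42321322, chr8:3625498-3625797, chr7:57510010-57510309 and chr9:37552696-37552995. Capitals mark AGGTCA, the half-site of nuclear receptors such as Rora, and the E-boxes CAGATG and CAGCTG, bound by proneural factors such as the Neurod proteins, searched on both strands.
Gabra6: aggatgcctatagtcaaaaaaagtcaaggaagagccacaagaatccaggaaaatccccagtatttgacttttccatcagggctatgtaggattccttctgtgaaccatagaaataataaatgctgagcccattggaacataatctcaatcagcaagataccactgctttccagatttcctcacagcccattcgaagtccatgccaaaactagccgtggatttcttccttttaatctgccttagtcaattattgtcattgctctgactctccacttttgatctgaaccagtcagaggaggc
Pcp2: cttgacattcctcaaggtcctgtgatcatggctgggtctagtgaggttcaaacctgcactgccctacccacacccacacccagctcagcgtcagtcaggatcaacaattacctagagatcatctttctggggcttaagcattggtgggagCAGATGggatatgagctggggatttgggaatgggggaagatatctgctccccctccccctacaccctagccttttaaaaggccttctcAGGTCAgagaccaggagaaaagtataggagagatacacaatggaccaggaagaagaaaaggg
Gabra5: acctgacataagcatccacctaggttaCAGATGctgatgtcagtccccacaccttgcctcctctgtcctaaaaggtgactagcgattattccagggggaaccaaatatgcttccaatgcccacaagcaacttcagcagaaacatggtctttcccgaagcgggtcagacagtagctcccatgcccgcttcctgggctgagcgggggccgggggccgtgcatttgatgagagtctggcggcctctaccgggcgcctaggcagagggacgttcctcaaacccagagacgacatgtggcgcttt
Nrgn: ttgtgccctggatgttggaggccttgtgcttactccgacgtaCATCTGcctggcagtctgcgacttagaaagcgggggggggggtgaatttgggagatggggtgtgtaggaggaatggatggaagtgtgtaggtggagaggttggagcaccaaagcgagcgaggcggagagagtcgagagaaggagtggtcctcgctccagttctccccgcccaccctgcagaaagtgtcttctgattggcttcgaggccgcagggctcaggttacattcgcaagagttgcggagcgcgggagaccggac

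Pcp2 held 1 AGGTCA and 1 CAGATG, Gabra5 1 CAGATG and Nrgn 1 CAGATG on the other strand, and Gabra6 held none of these letters in its window. Of the 10890 genes tested, 8665 had a promoter in the table. AGGTCA occurred in 11.1% of these, in 14.7% of the 829 higher in cerebellum and in 9.35% of the 1059 higher in hippocampus. CAGATG occurred in 11.2%, 12.7% and 13%, and CAGCTG in 14.8%, 18.2% and 19%, in the same order. Over 27025 genes of the table the shares were 16%, 17.3% and 16.1%. A match is a run of letters and not a bound site.

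Transcription factors that pattern forebrain and hindbrain were called in nearly every case. Of 13 factors of the forebrain, 11 were higher in hippocampus and 0 in cerebellum, with a median difference of -4.52. Of 17 tested factors of the cerebellum, all 17 were higher in cerebellum, with a median of 4.67. These compare with 12.6% and 9.86% of all genes in those directions. Counts of called genes in the lists below are to be read against the same shares, and against 22.5% called in either direction. The lists, here and below, were chosen with earlier results of these data known, so their direction is described and not tested.

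Emx2, a homeobox factor of the dorsal forebrain, had 9.52 to 14.5 cpm (median 13) in hippocampus and at most 3 counts in any cerebellum library, which makes it at least 22.9-fold higher. Its relative Emx1 had 201 to 263 cpm in hippocampus (median 218) and 3.43 to 9.13 cpm in cerebellum (median 4.62), a difference of -5.32. Fezf2 (-5.85) and the bHLH factor Neurod6 (-4.97) followed. Prox1, the factor that keeps dentate granule cell identity, had 336 to 580.4 cpm in hippocampus (median 459) and 111 to 267 cpm in cerebellum (median 207), a smaller difference of -1.23 ± 0.15. Neurod2 and Zbtb18, nearest to 0 in this list, did not pass the fold threshold, at -0.42 and 0.39.

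Tfap2b, a factor of cerebellar inhibitory interneurons, led the cerebellar factors with 0.124 to 0.790 cpm in hippocampus (median 0.363) and 39.2 to 49.5 cpm in cerebellum (median 41.6), a difference of 6.70 ± 0.18. En2, an engrailed homeobox gene of the midbrain and hindbrain, had 0.543 to 3.42 cpm in hippocampus (median 1.18) and 100.4 to 168 cpm in cerebellum (median 107), a difference of 6.47 ± 0.23. Lhx1, a LIM-homeobox factor of Purkinje cells, and Skor2, a corepressor of the same cells, had no more than 3 counts in any hippocampus and were at least 22-fold and 8.47-fold higher in cerebellum. Granule cell and unipolar brush cell factors were also higher, among them Barhl1 (5.78), Eomes (5.26), Meis1 (4.96) and Zic1 (4.67). Etv1 had the smallest difference of the list, 1.80 ± 0.16, with 1079 cpm in WT cerebellum m244 against 550.4 to 695 cpm in the other 6. Barhl2 and Lhx5 were listed but not tested, with no more than 3 counts in any hippocampus and 0.878 to 3.61 cpm (median 2.10) and 1.99 to 4.78 cpm (median 4.53) in cerebellum. Gbx2 had no more than 3 counts in either region.

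**Figure D3:**
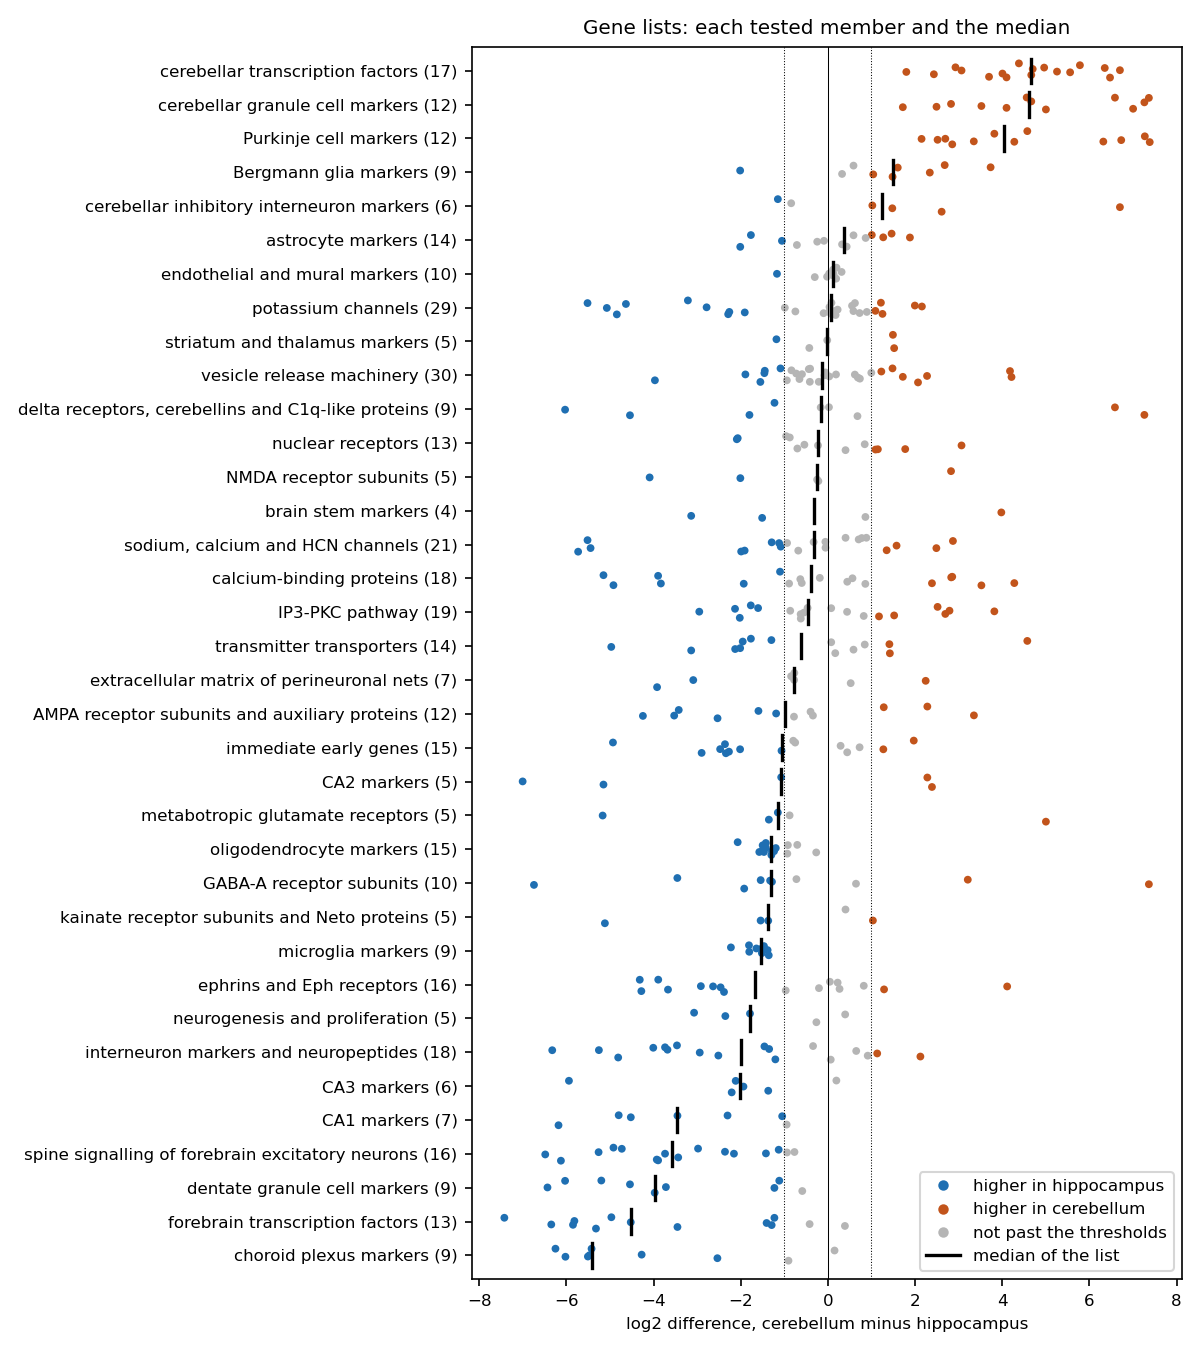
Difference of each tested member of the 36 gene lists, as log2 of cerebellum over hippocampus on the horizontal axis, with lists ordered by their median (black bar) and the number of tested members in parentheses. Orange and blue points were called higher in cerebellum and hippocampus, grey points were not, and dotted lines mark the 2-fold threshold. Choroid plexus (-5.42) and forebrain factors (-4.52) lie at one end and cerebellar factors (4.67) and granule cells (4.61) at the other.

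All tested markers of cerebellar granule cells and Purkinje cells were higher in cerebellum. For granule cells this held for 12 of 12 markers with a median of 4.61, and for Purkinje cells for 12 of 12 with a median of 4.05. The summed level of the granule cell markers was 228 to 326 cpm in hippocampi and 5638 to 7404 in cerebella, and that of the Purkinje cell markers 683 to 832 and 9427 to 10568 cpm. The tissue labels were thus matched by marker levels in all 14 libraries. Besides Gabra6, Cbln3 and Cbln1, the granule cell gene Fat2, a giant cadherin of parallel fibres, rose from 0 to 0.895 cpm (median 0.249) in hippocampus to 28.1 to 48.3 cpm (median 40.1) in cerebellum. The smallest granule cell difference was that of Cadps2, a factor for the release of dense-core vesicles, at 1.72 ± 0.09.

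In the Purkinje list Pcp2, Ppp1r17 and Car8 led, and Dner, a Notch ligand of Purkinje cells, had the smallest difference, 2.15 ± 0.13. Pvalb, the calcium buffer of Purkinje cells and fast-spiking interneurons, had 44.5 to 109 cpm in hippocampus (median 79.2) and 1357 to 1689 cpm in cerebellum (median 1537), a difference of 4.28 ± 0.14. Gpr63 was not tested, with no more than 3 counts in any hippocampus and 0 to 1.45 cpm (median 0.212) in cerebellum.

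Bergmann glia markers split. 6 of 9 were higher in cerebellum, 1 was higher in hippocampus and 2 were not called, with a median of 1.48. Gdf10, a TGF-β family ligand typical of Bergmann glia, had 1.18 to 3.48 cpm in hippocampus (median 1.79) and 18.9 to 29.7 cpm in cerebellum (median 26), a difference of 3.73 ± 0.18. A2m (2.68) and the protease inhibitor Timp4 (2.34) followed. Slc6a11, a GABA transporter of astrocytes, was higher in hippocampus, with 17.9 to 27.6 cpm in hippocampus (median 24.1) and 5.09 to 7.05 cpm in cerebellum (median 5.97), and the connexin gene Gjb6 was not called, at 0.33 ± 0.09. Of the inhibitory interneuron markers of cerebellum 4 of 6 were higher there (median 1.25), led by Tfap2b, Pax2 (2.61) and the receptor kinase Kit (1.48). Pax2 had 13.3 cpm in WT cerebellum m244 and 2.51 to 5.94 cpm in the others. In that list the glutamate receptor Grm2, also a gene of Golgi cells, was higher in hippocampus (-1.15 ± 0.13), and Sorcs3 was not called (-0.84 ± 0.18) except in CD libraries alone, at -1.15. The glycine transporter gene Slc6a5 was too low to test, at 0 in all hippocampi and 0.212 to 1.72 cpm (median 0.723) in cerebella.

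Markers of the hippocampal fields were mostly higher in hippocampus, with CA2 divided. 8 of 9 dentate granule cell markers were higher there (median -3.97), 6 of 7 of CA1 (median -3.45) and 5 of 6 of CA3 (median -2.03), and in these 3 lists 0 were higher in cerebellum. C1ql2, secreted by the mossy fibres of dentate granule cells, had 669 to 995 cpm in hippocampus (median 742) and 8.13 to 15.2 cpm in cerebellum (median 12.1), a difference of -6.03 ± 0.14. Lct was at least 38.9-fold higher in hippocampus and Dsp, which encodes desmoplakin, differed by -5.20. Tdo2 was not called in the dentate list, at -0.59 ± 0.24, and Trpc6, not tested, had 1.21 to 3.95 cpm (median 2.76) in hippocampus with no more than 3 counts in any cerebellum.

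In CA1 the leading markers after Fibcd1 were the POU factor gene Pou3f1 (-4.80) and Mpped1 (-4.52). Ccn3, a secreted matrix-associated protein, had 5.01 to 30.8 cpm in hippocampus (median 19.7) and 1.29 to 4.71 cpm in cerebellum (median 2.89), a difference of -2.30 ± 0.32. WT hippocampus m244 was the lowest hippocampus for Fibcd1, Mpped1 and Ccn3, at 36, 79.1 and 5.01 cpm. For Dcn, of the same list, the lowest was WT hippocampus m240, at 10.9 cpm against 18.2 in WT hippocampus m244. Dcn was not called, at -0.95 ± 0.29 and FDR 0.00913, but was called without WT hippocampus m162, CD hippocampus m190, WT hippocampus m240, WT cerebellum m240 or WT cerebellum m244, at -1.10, -1.01, -1.12, -1.10 and -1.0. It was also called without the genotype term, at -1.15, and in CD libraries alone, at -1.77. In CA3 the largest differences were those of the copine Cpne4 (-5.94), Bok (-2.21), a relative of Bcl2, and the adhesion protein Nectin3 (-2.11), whereas Spock1 was not called (0.20 ± 0.09). Iyd was not tested, with no more than 3 counts in any cerebellum and 0.363 to 2.68 cpm (median 1.23) in hippocampus.

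The CA2 list went both ways, with 2 of 5 markers higher in cerebellum, 3 in hippocampus and a median of -1.07. Rgs14, a regulator of G protein signalling that restrains plasticity in CA2, was at least 10.9-fold higher in hippocampus, Necab2 differed by -5.15 and Amigo2 by -1.07 ± 0.10. Pcp4 and Cacng5, known from CA2 within hippocampus, were higher in cerebellum. Pcp4, a small regulator of calmodulin that Purkinje cells also make, had 293 to 422 cpm in hippocampus (median 342) and 1608 to 1966 cpm in cerebellum (median 1839), a difference of 2.39 ± 0.08. Cacng5, an auxiliary protein of AMPA receptors, had 12.1 to 25.1 cpm in hippocampus (median 16.6) and 69.6 to 104 cpm in cerebellum (median 95.4), a difference of 2.28 ± 0.14.

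GABA-A receptor subunits differed in both directions. Of 10 subunits tested 2 were higher in cerebellum, 6 were higher in hippocampus and 2 were not called, with a median of -1.30. In cerebellum Gabra6 was joined by Gabrd, the δ subunit of extrasynaptic receptors, with 2.37 to 5.03 cpm in hippocampus (median 4.11) and 34.2 to 44.6 cpm in cerebellum (median 35.4) and a difference of 3.21 ± 0.14. After Gabra5, the hippocampal subunits were led by Gabrg3 (-3.45) and Gabra4 (-1.92). Gabrb2, a β subunit, was not called (0.65 ± 0.08), with 94.8 to 129 cpm in hippocampus (median 115) and 149 to 186 cpm in cerebellum (median 178).

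Of 12 AMPA receptor subunits and auxiliary proteins 3 were higher in cerebellum and 6 in hippocampus, with a median of -0.98. Gria4, the GluA4 subunit, had 16.7 to 22.8 cpm in hippocampus (median 19) and 179 to 205 cpm in cerebellum (median 196) and a difference of 3.35 ± 0.08, and the auxiliary proteins Cacng5 and Cacng2, or stargazin, were also higher in cerebellum. Gria1 (371 to 667 cpm in hippocampus, median 405, and 132 to 166 cpm in cerebellum, median 155) and Gria2, the subunits of most forebrain receptors, were higher in hippocampus, with differences of -1.59 ± 0.11 and -1.19 ± 0.10. So were the cornichons Cnih3 (-4.24) and Cnih2 (-3.42) and the auxiliary Shisa7 (-3.53). Shisa9 was not called (-0.34 ± 0.24). Cacng7 and Cacng8 had no more than 3 counts in any library of either region. Here and below, such counts are those of the 1 record kept per gene. They do not show that a gene is not expressed. Gria1, Gria2, Gria4 and Neto1 were counted here on noncoding transcript records of protein-coding genes.

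Of the NMDA receptor subunits, 2B and 2C parted the regions. Grin2b, the subunit tied to plasticity in forebrain, had 213 to 366 cpm in hippocampus (median 318) and 12.7 to 22.7 cpm in cerebellum (median 16.3), a difference of -4.09 ± 0.15. Grin2c, the subunit of mature cerebellar granule cells, had 8.35 to 12.7 cpm in hippocampus (median 11.4) and 69.9 to 95.4 cpm in cerebellum (median 77), a difference of 2.83 ± 0.10. Neither gene's regions overlapped. The obligatory subunit Grin1 differed by only -0.22 ± 0.06 and was not called, and Grin2a, low in both regions, differed by -2.01 ± 0.49 with overlapping libraries. In all, 1 of 5 subunits was higher in cerebellum and 2 in hippocampus (median -0.25), and Grin2a lost its call in CD libraries alone, at -1.50.

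Of 5 kainate receptor genes 1 was higher in cerebellum and 3 in hippocampus, with a median of -1.37. Neto1, an auxiliary subunit, had 133 to 177 cpm in hippocampus (median 155) and 2.76 to 7.55 cpm in cerebellum (median 3.98), a difference of -5.12 ± 0.14. Grik5 (-1.54) and Grik4 (-1.37) were also higher in hippocampus, Neto2 was higher in cerebellum (1.03 ± 0.12), and Grik2 was not called (0.40 ± 0.09). The call of Neto2 was lost without CD hippocampus m190, WT hippocampus m244 or WT cerebellum m240, at 0.98, 0.96 and just under 1.0. It was also lost in CD libraries alone, at 0.89, and without the 3 hippocampi of high Ttr described below, at 0.90. Of 5 metabotropic receptors, Grm4 was higher in cerebellum and Grm5, Grm7 and Grm2 in hippocampus, with a median of -1.15. Grm4, a presynaptic receptor of parallel fibres, had 25.5 to 50.3 cpm in hippocampus (median 37.8) and 1041 to 1332 cpm in cerebellum (median 1251), a difference of 5.0 ± 0.12. Grm5, a postsynaptic receptor of pyramidal cells, had 134 to 190 cpm in hippocampus (median 172) and 2.33 to 5.57 cpm in cerebellum (median 4.21), a difference of -5.17 ± 0.13. Grm7 differed by -1.35, and Grm3 was not called (-0.88 ± 0.19) but passed without WT cerebellum m162 and in CD libraries alone, both at -1.03.

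Cerebellins, C1q-like proteins and their partners, which organise synapses from outside the cell, gave 2 of 9 genes higher in cerebellum and 4 in hippocampus (median -0.16). Cbln1 and Cbln3 were higher in cerebellum, and C1ql2, C1ql3 (-4.54) and C1ql1 (-1.80) in hippocampus. Adgrb3, the receptor of C1q-like proteins, was not called (0.03 ± 0.15). Cbln4 was not tested, with 2.72 to 5.03 cpm in hippocampus (median 3.38) and 0 to 0.963 cpm in cerebellum (median 0). C1ql4 and Nrxn2 had no more than 3 counts in any library.

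Pairs of related genes were set side by side to describe how they differed between the regions. 22 pairs were chosen with earlier results known, so the number that parted is described and not tested. In 19 pairs both genes were tested. In 12 of these 1 gene was higher in cerebellum and the other in hippocampus. Besides Gabra6 and Gabra5, Grin2c and Grin2b, Gria4 and Gria1, and Grm4 and Grm2, these were the scaffolds Homer3 (2.52) and Homer1 (-1.30), the bHLH factors Neurod1 (4.10) and Neurod6 (-4.97), and the kinases Camk4 (2.41) and Camk2a (-3.93). The others were the phospholipases Plcb4 (3.82) and Plcb1 (-2.02), the glutamate transporters Slc1a6 (4.58) and Slc1a1 (-2.13), the synaptotagmins Syt2 (4.18) and Syt1 (-1.45), the potassium channels Kcnc1 (2.00) and Kcnc2 (-4.84), and the calmodulin-binding Pcp4 (2.39) and Nrgn (-4.92).

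In 3 pairs both genes were higher in the same region. Slc17a6 (-3.14) and Slc17a7 (-1.30), the vesicular glutamate transporters 2 and 1, were both higher in hippocampus, as were C1ql1 and C1ql2, and Calb2 (3.52) and Calb1 (2.85) were both higher in cerebellum. Slc17a7 had 437 to 751 cpm in hippocampus (median 512) and 159 to 269 cpm in cerebellum (median 234), without overlap. In 3 further pairs the first gene was higher in cerebellum and the second was not called, namely Unc13c (4.21) and Unc13a (-0.84), Cadps2 (1.72) and Cadps (-0.65), and Vamp1 (1.23) and Vamp2 (-0.41). Unc13a was called in WT libraries alone, at -1.02. Neither gene was called of the complexins Cplx1 (0.19) and Cplx2 (-0.08). Of the 3 pairs with an untested gene, Scn3b was higher in hippocampus, and Cacng2 and Cbln1 were higher in cerebellum. Their partners Scn4b, Cacng8 and Cbln4 were too low to test on the records kept.

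**Figure D4:**
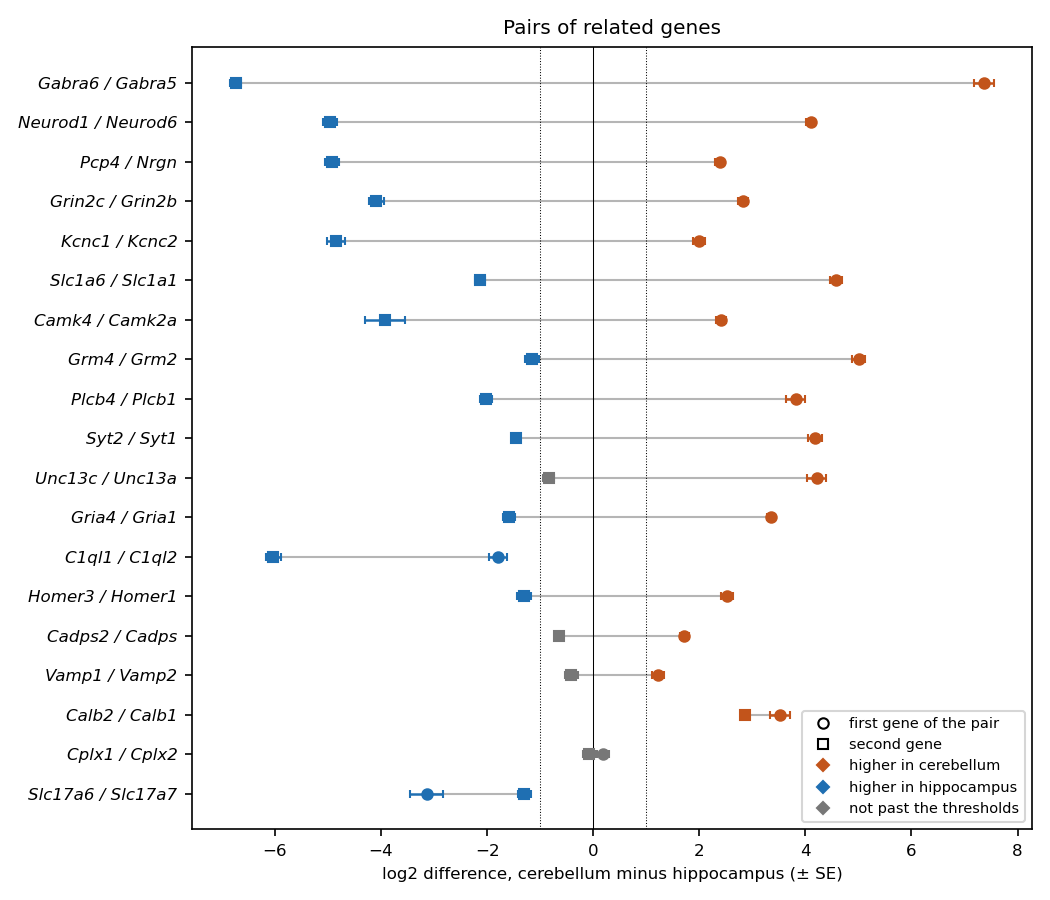
Differences, as log2 of cerebellum over hippocampus ± SE, of the 19 pairs of related genes in which both were tested. Circles are the first gene named and squares the second, orange and blue mark genes called higher in cerebellum and hippocampus, and grey marks genes not called. In 12 pairs the genes were called in opposite directions, from Gabra6 and Gabra5 at the top, whose differences are 7.36 and -6.74, to Homer3 and Homer1.

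Genes of signalling in forebrain spines were higher in hippocampus in 14 of 16 cases and higher in cerebellum in 0, with a median of -3.58. After Icam5, the largest differences were those of Ddn (-6.12), which encodes the postsynaptic protein dendrin, and of the kinase-like Camkv (-5.26). Nrgn had 9087 to 11636 cpm in hippocampus (median 9818) and 281 to 496 cpm in cerebellum (median 321), a difference of -4.92 ± 0.13. Camk2a, the α subunit of the plasticity kinase CaMKII, had 784 to 1562 cpm in hippocampus (median 863) and 26.8 to 143 cpm in cerebellum (median 40.2), a difference of -3.93 ± 0.37. Its spread was widest in cerebellum, where WT m164 and CD m242 had 136 and 143 cpm and the other 5 had 26.8 to 50.9. The β subunit Camk2b, which cerebellum is known to use, was not called, at -0.77 ± 0.11.

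Calcium-binding proteins divided between the regions, with 5 of 18 higher in cerebellum and 6 in hippocampus (median -0.39). Pvalb, Calb2 and Calb1, buffers of cerebellar neurons, were higher in cerebellum. Calb1 had 178 to 215 cpm in hippocampus (median 195) and 1223 to 1512 cpm in cerebellum (median 1399.6), and Calb2 52.9 to 124 cpm in hippocampus (median 99.4) and 847 to 1338 cpm in cerebellum (median 914). Necab2, Nrgn and the neuronal sensor Hpca (1468 to 2336 cpm in hippocampus, median 1732, and 103 to 139 cpm in cerebellum, median 124), or hippocalcin, were higher in hippocampus, and the calmodulin gene Calm2 was not called (-0.19 ± 0.06).

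The pathway through phospholipase C, IP3 and protein kinase C, which Purkinje cells use for synaptic depression, gave 6 of 19 genes higher in cerebellum and 5 in hippocampus (median -0.46). Itpr1, the IP3 receptor of Purkinje cell stores, had 122 to 189.7 cpm in hippocampus (median 161.89) and 950.3 to 1174 cpm in cerebellum (median 1087), a difference of 2.69 ± 0.10. Plcb4, with 2.49 to 6.58 cpm in hippocampus (median 5.01) and 53.9 to 91.8 cpm in cerebellum (median 64), and Itpr3 (2.79) completed the leading members. On the hippocampal side were the diacylglycerol kinase Dgkb (-2.95), Prkca (-2.13) and Plcb1, and Dgkg was not called (0.08 ± 0.07).

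Voltage-gated channels were called in both directions as well. Of 29 potassium channel genes 5 were higher in cerebellum, 9 in hippocampus and 15 were not called (median 0.08). Over all genes tested the shares were 9.86% higher in cerebellum and 12.6% higher in hippocampus. The accessory Kcnip1, Kcnc1 and Kcnd2 led in cerebellum, with differences of 2.16, 2.00 and 1.25. Kcnc1 encodes a channel that serves fast firing, and Kcnd2 an A-type channel. Kcnip2, the partner of A-type channels, had 477 to 655 cpm in hippocampus (median 576) and 9.27 to 18 cpm in cerebellum (median 9.82), a difference of -5.51 ± 0.15, and with Kcnq5 (-5.07), an M-current subunit, and Kcnc2 (-4.84) led in hippocampus. The calcium-activated channel Kcnma1 was not called (0.03 ± 0.10), and Kcnn1 had no more than 3 counts in any library.

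Sodium, calcium and HCN channel genes were higher in cerebellum in 4 of 21 cases and in hippocampus in 8 (median -0.33). Scn3b, a β subunit, had 161 to 224 cpm in hippocampus (median 176) and 2.76 to 4.71 cpm in cerebellum (median 2.99), a difference of -5.73 ± 0.12, followed by Scn3a (-5.51) and the T-type channel Cacna1h (-5.44). Another T-type channel, Cacna1g, was higher in cerebellum (2.49 ± 0.19), with the accessory subunits Cacna2d2 (2.87) and Cacnb4 (1.58) and Cacna1a, the P/Q-type channel of Purkinje cells (50.2 to 83.5 cpm in hippocampus, median 58.8, and 145 to 179.8 cpm in cerebellum, median 170.2). Cacna1i was not called (-0.05 ± 0.09), and Hcn4 had no more than 3 counts in any library.

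Of 14 transmitter transporter genes 3 were higher in cerebellum and 7 in hippocampus (median -0.61). Slc1a6, the glutamate transporter EAAT4 of Purkinje cells, had 9.12 to 13.9 cpm in hippocampus (median 11.5) and 235 to 308 cpm in cerebellum (median 295), a difference of 4.58 ± 0.11. The vesicular GABA transporter Slc32a1 (1.42) and the glycine transporter Slc6a9 (1.41) were also higher in cerebellum. Slc30a3, which loads zinc into glutamatergic vesicles, had 545 to 729 cpm in hippocampus (median 679.7) and 16.8 to 24.3 cpm in cerebellum (median 20.7), a difference of -4.97 ± 0.10, ahead of Slc17a6 and Slc1a1. Slc6a17 was not called (0.08 ± 0.07), and Slc17a8 was not tested, with 1.48 to 3.16 cpm (median 2.61) in hippocampus and no more than 3 counts in any cerebellum.

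Of the vesicle release machinery 17 of 30 genes were not called, 7 were higher in cerebellum and 6 in hippocampus (median -0.14). Syt2, a fast calcium sensor for release, had 56.5 to 104 cpm in hippocampus (median 73.4) and 1209 to 1613 cpm in cerebellum (median 1382), a difference of 4.18 ± 0.13. Unc13c, the Munc13-3 of granule cells, had 6.71 to 20.8 cpm in hippocampus (median 11.9) and 186 to 247 cpm in cerebellum (median 232), a difference of 4.21 ± 0.18, and Rims3 followed (2.28). Stx1a, a syntaxin of the presynaptic membrane (283 to 381 cpm in hippocampus, median 314, and 15.9 to 31.3 cpm in cerebellum, median 18.6), led in hippocampus with -3.97 ± 0.13, ahead of Rab3b (-1.89) and Unc13b (-1.55). Syt1 had 1254 to 1424 cpm in hippocampus (median 1317) and 448 to 540 cpm in cerebellum (median 509), a difference of -1.45 ± 0.06, and the vesicle protein Sv2a was not called (0.03 ± 0.09).

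Interneuron markers and neuropeptides were mostly higher in hippocampus, with 12 of 18 genes against 2 and a median of -1.98. Sst, the peptide somatostatin of dendrite-targeting interneurons, had 3875 to 5938 cpm in hippocampus (median 5409) and 100.2 to 201 cpm in cerebellum (median 113), a difference of -5.25 ± 0.17. Pdyn, the prodynorphin of dentate granule cells, was at least 29.2-fold higher, and Cort differed by -4.81. Npy, made by several interneuron types, had 1333 to 1919 cpm in hippocampus (median 1699.6) and 537 to 853 cpm in cerebellum (median 688). Cck, made by basket cells and others, had 1192 to 1730 cpm in hippocampus (median 1391) and 165 to 306 cpm in cerebellum (median 249). Penk (8.41 to 19.2 cpm in hippocampus, median 13.7, and 52.6 to 75.7 cpm in cerebellum, median 64.3) and the cannabinoid receptor gene Cnr1 (1.13 ± 0.10) were higher in cerebellum, but Cnr1 lost its call in CD libraries alone, at 0.95. Neither enzyme that makes GABA was called, with differences of 0.07 ± 0.12 for Gad2 and 0.91 ± 0.10 for Gad1. Gad1, counted on a noncoding transcript record, was called in WT libraries alone, at 1.11. Crh was not tested, with 0.373 to 1.77 cpm (median 1.07) in hippocampus and no more than 3 counts in any cerebellum.

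Immediate early genes, which neurons switch on with activity, were called higher in hippocampus in 8 of 15 cases and in cerebellum in 2 (median -1.06). Egr3 had 19 to 25.8 cpm in hippocampus (median 20.9) and 0 to 1.08 cpm in cerebellum (median 0.777), a difference of -4.93 ± 0.23, followed by Fosb (-2.90) and Junb (-2.47). Arc, whose product acts at spines, had 73.5 to 118.40 cpm in hippocampus (median 86.3) and 14.8 to 21 cpm in cerebellum (median 17.1). Ier2 (3.98 to 6.76 cpm in hippocampus, median 4.83, and 14.4 to 22.9 cpm in cerebellum, median 18.3) and the phosphatase gene Dusp1 (1.27 ± 0.25) went the other way, and Fos (0.73 ± 0.21) and Btg2 (0.29 ± 0.15) were not called. Dusp1 lost its call in CD libraries alone, at just under 1.0.

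Of 16 ephrins and Eph receptors, guidance molecules that also act at adult synapses, 8 were higher in hippocampus and 2 in cerebellum (median -1.67). Epha6 had 98 to 156 cpm in hippocampus (median 108) and 3.63 to 8.60 cpm in cerebellum (median 5.96), a difference of -4.32 ± 0.17, followed by Epha5 (-4.28) and Epha4 (-3.89). Epha8 had 0 to 1.09 cpm in hippocampus (median 0.621) and 8.17 to 14.6 cpm in cerebellum (median 12), a difference of 4.11 ± 0.30, Ephb2 differed by 1.29, and Ephb1 was not called (0.05 ± 0.11).

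Matrix genes of perineuronal nets gave 1 of 7 higher in cerebellum, Tnc (1.84 to 5.34 cpm in hippocampus, median 3.55, and 11.6 to 21.6 cpm in cerebellum, median 14.9), and 2 higher in hippocampus, Ncan (35.2 to 50 cpm in hippocampus, median 41, and 1.91 to 4.92 cpm in cerebellum, median 2.53) and Hapln1 (-3.09). The median of the list was -0.77, and over all genes tested 9.86% were higher in cerebellum and 12.6% in hippocampus. Hapln4, a link protein of cerebellar synapses, was not called (0.52 ± 0.10), Acan was not tested, with 0.790 to 3.26 cpm (median 1.74) in hippocampus and no more than 3 counts in any cerebellum, and Has2 had no more than 3 counts in any library. Nuclear receptors were called in 6 of 13 cases, 4 higher in cerebellum and 2 in hippocampus (median -0.23). Rora, without which Purkinje cells fail to mature, had 26.1 to 33.5 cpm in hippocampus (median 28.1) and 225 to 258 cpm in cerebellum (median 243), a difference of 3.07 ± 0.07. Esrrg (1.77) and the clock repressor Nr1d2 (1.15) followed. The thyroid hormone receptor Thrb (-2.09) and the mineralocorticoid receptor Nr3c2 (-2.07) were higher in hippocampus, and Nr2f1 was not called (-0.23 ± 0.10). Nr3c2 lost its call in WT libraries alone, at -1.65. Rxrg was not tested, with no more than 3 counts in any cerebellum.

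Of 5 genes of neurogenesis and immature neurons 3 were higher in hippocampus and 0 in cerebellum (median -1.79). Sox11 had 27 to 49 cpm in hippocampus (median 43.6) and 3.47 to 6.58 cpm in cerebellum (median 4.97), a difference of -3.07 ± 0.14. Hes5 (-2.35) and Dcx (-1.79), the doublecortin of migrating neurons, followed, and Stmn1 was not called (-0.26 ± 0.14). The proliferation gene Mki67 and Igfbpl1 were too low to test.

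Microglia, oligodendrocyte and astrocyte markers had list medians between -1.53 and 0.38. Oligodendrocyte markers were higher in hippocampus in 11 of 15 cases and higher in cerebellum in 0, with a median of -1.30. Mbp, the myelin basic protein, had 1359 to 2449 cpm in hippocampus (median 1904) and 617 to 1019 cpm in cerebellum (median 804), a difference of -1.23 ± 0.12. Opalin (-2.07), Cldn11 (-1.57) and Olig1 (-1.50) had the largest differences, and Cnp was not called (-0.27 ± 0.10). All 9 tested microglia markers were higher in hippocampus, within a narrow range of -2.22 to -1.36 and with a median of -1.53. Cx3cr1, the fractalkine receptor, had 28 to 37.1 cpm in hippocampus (median 32.4) and 5.83 to 8.01 cpm in cerebellum (median 6.79), a difference of -2.22 ± 0.10, Tmem119 and Aif1 differed by -1.81 and -1.80, and Ctss differed least, by -1.36 ± 0.10. The summed level of all 12 microglia genes was 824 to 985 cpm in hippocampi and 279 to 338 cpm in cerebella. Trem2 had no more than 3 counts in any library.

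Astrocyte markers were called in 7 of 14 cases, 4 higher in cerebellum and 3 higher in hippocampus (median 0.38). Gfap, the intermediate filament protein, had 548 to 858 cpm in hippocampus (median 629) and 135 to 203 cpm in cerebellum (median 162.18), a difference of -2.01 ± 0.10, and the glutamate transporter Slc1a2 (-1.77) and the glutamine synthetase Glul (-1.05) were also higher in hippocampus. S100b, a calcium-binding protein higher in cerebellum, had 69.1 to 78.6 cpm in hippocampus (median 75.8) and 239.8 to 307 cpm in cerebellum (median 280.3), a difference of 1.88 ± 0.07. The aldolase Aldoc, which Purkinje cells of some zones also make, was higher there too, with 1973 to 2254 cpm in hippocampus (median 2053) and 5058 to 6705 cpm in cerebellum (median 5739.6). Agt differed by 1.27, and Sox9 was not called (-0.09 ± 0.16). Of 10 endothelial and mural markers (median 0.12) 9 were not called, while 22.5% of all genes tested were called. Tek, a receptor of endothelial cells, differed by -0.02 ± 0.19, and Acta2, the actin of smooth muscle, was the 1 gene called, at -1.17 ± 0.16. Acta2 lost its call in CD libraries alone, at -0.68.

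Choroid plexus genes had a median of -5.42 over 9 tested genes. With the genes at 3 counts or fewer set to their bounds it was -4.32, and that of the forebrain factors was -4.52. 7 were higher in hippocampus and 0 in cerebellum. These genes differed widely among hippocampi, and the summed level of all 12 listed was 416 to 10491 cpm in hippocampi and 142 to 275 cpm in cerebella. Ttr, the transthyretin secreted by the plexus, had 8479.8 cpm in WT m244, 4281 in CD m190 and 1231 in CD m138, but 125 to 561 cpm in the other 4, against 30.8 to 91.5 cpm (median 44.5) in cerebella. Enpp2 followed the same order at the top, with 237 to 1655 cpm in hippocampus (median 316) and 87.6 to 154 cpm in cerebellum (median 92.9). Folr1 and Kcne2 had no more than 3 counts in any cerebellum, and Sostdc1 and Prlr differed by -6.02 ± 0.60 and -5.51 ± 0.93. Otx2, a factor of the plexus and of the developing cerebellum, was not called (0.15 ± 0.43). Without the 3 hippocampi with over 1000 cpm of Ttr, an alternative chosen after these values were seen, 5 genes of the list were still tested and 3 of them were called, against 2401 genes in all. With the mouse as a random replicate block in limma-voom 4 genes of the list were called instead of 7, and Prlr was among those that lost the call.

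**Figure D5:**
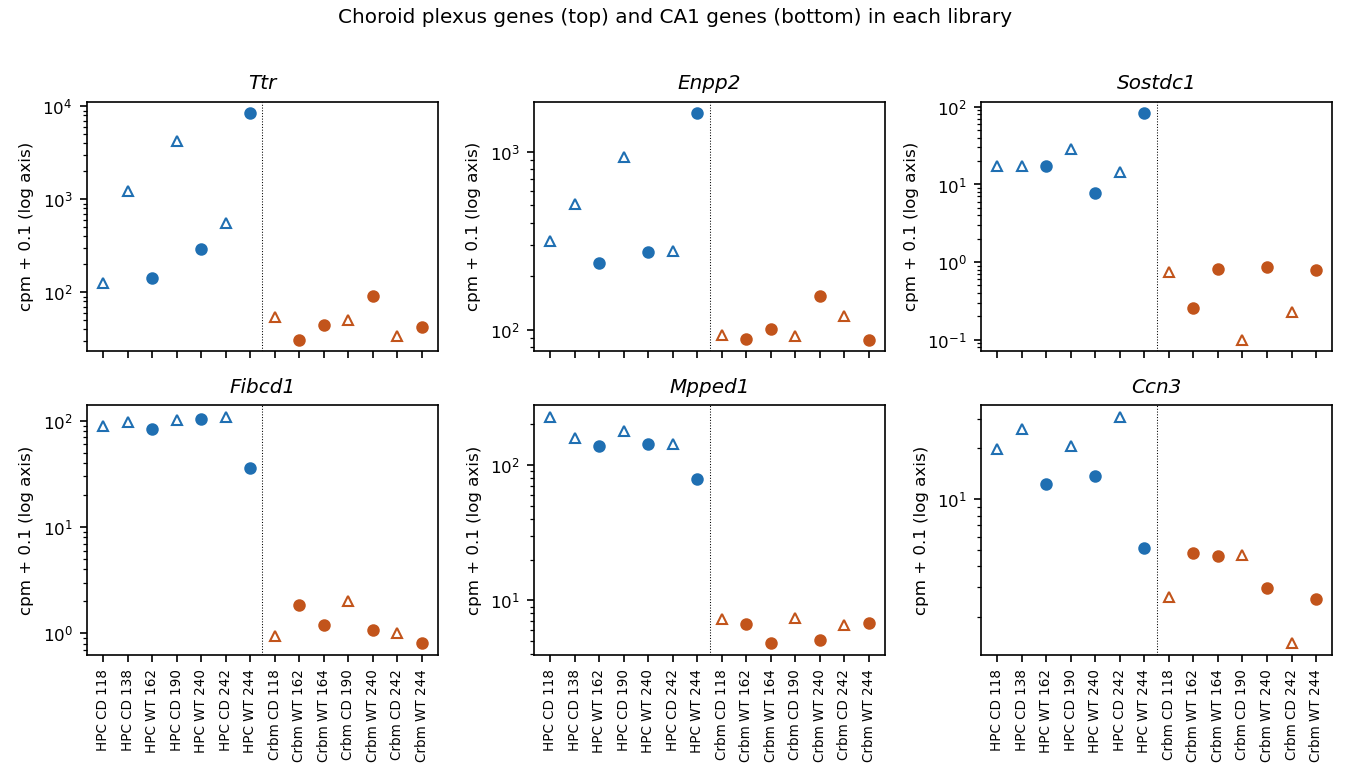
Level of 3 choroid plexus genes (top row) and 3 CA1 genes (bottom row) in each library, in cpm with 0.1 added on a log axis, with hippocampi (blue) left and cerebella (orange) right of the dotted line. Filled circles are WT and open triangles CD libraries. WT hippocampus m244 has the highest Ttr, 8479.8 cpm, Enpp2 and Sostdc1 and the lowest Fibcd1, Mpped1 and Ccn3 of the 7 hippocampi.

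Markers of neighbouring tissue were low or mixed. Of 5 tested markers of striatum and thalamus (median -0.01), Ppp1r1b (1.49) and Prkcd (1.52), which Purkinje cells and other cells also make, were higher in cerebellum. Rgs9 was higher in hippocampus by -1.18 ± 0.26, in 5 of 6 mice, but not with the mouse as a fixed replicate block, at -0.96, nor in CD libraries alone, at -1.19, nor without the 3 hippocampi of high Ttr, at -0.84. Tcf7l2 was not called (-0.01 ± 0.14), and the dopamine receptor genes Drd1 and Drd2 had no more than 3 counts in any cerebellum. Among 4 tested brain stem markers (median -0.32) Th, the tyrosine hydroxylase that some Purkinje cells transcribe, had 0.263 to 2.66 cpm in hippocampus (median 1.45) and 14.5 to 36.6 cpm in cerebellum (median 22.3), a difference of 3.98 ± 0.29. Slc17a6 and Sncg (-1.51) were higher in hippocampus, Nefh was not called (0.86 ± 0.07), and Chat had no more than 3 counts in any library.

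By the records they were counted on, the noncoding RNAs with the largest differences were Lhx1os, Gria4 and Prune2 in cerebellum and Neto1, Miat and Pantr1 in hippocampus, of which Gria4, Prune2 and Neto1 are protein-coding genes with noncoding transcript records. Miat, a long noncoding RNA of neurons, had 423 to 514 cpm in hippocampus (median 486) and 11.6 to 25.1 cpm in cerebellum (median 16.1), a difference of -4.82 ± 0.14. Pantr1, transcribed beside a POU factor gene of the cortex, had 43.7 to 60.8 cpm in hippocampus (median 57.4) and 5.09 to 7.23 cpm in cerebellum (median 6.12), a difference of -3.15 ± 0.11. Prune2 differed by 2.42 ± 0.12.

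Whether the difference between the regions depended on genotype was tested gene by gene. No gene passed an FDR of 0.05 for a region by genotype interaction in edgeR, and the lowest FDR was 0.779. Of the 10890 genes tested, 557 had an unadjusted p under 0.05. In DESeq2 none passed either, with 535 genes at an unadjusted p under 0.05. With no interaction in any gene, a share of about 0.05 would have such a p, so these counts point to no gene. Without a filter on low counts 49 of 22058 genes passed, and without WT hippocampus m162 1 gene, Acta2. Tulp4, the gene whose circular RNA was edited, had 3.99 to 10.2 cpm in hippocampus (median 6.71) and 8.43 to 24.8 cpm in cerebellum (median 12.2), a difference of 0.91 ± 0.21 that did not reach 2-fold. Without WT cerebellum m244 its difference was 1.01, and it was called. The circular RNA itself was not measured by these 3′ counts.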

How the data were processed

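The authors dissected the regions, extracted RNA and prepared CelSeq2 libraries, which read the 3′ ends of polyadenylated RNA with a six-base unique molecular identifier (UMI), for sequencing on a NextSeq 500. Reads were aligned with STAR to mm10 and counted with End Sequence Analysis Toolkit. Tool versions, the annotation release, the collapse of UMIs, the use of strand and the handling of reads shared between transcripts are not given in the sources used here. The deposited table holds whole-number counts per transcript record for 22 libraries, not normalized.

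Transcript records were matched to gene symbols by RefSeq accession without version, which succeeded for 69288 of 85964 records (80.6%, holding 81.3% of counts). Of the 23037 genes, the record with the highest total over 22 libraries stood for each gene. Genes with 5 cpm in at least 2 of 14 libraries were kept, following the filter of the study. For this filter cpm was relative to the records of all 23037 genes, without TMM scaling. On the TMM-scaled levels given in the text, 5 cpm stood for 19.0 to 41.3 counts. TMM factors and the quasi-likelihood test of edgeR 4.0.16 (R 4.3.3) were applied to the counts with region and genotype as terms, at a fold above 2 or below 0.5 and a Benjamini-Hochberg FDR under 0.01. The fit was tested on simulated data. Replicates were separate mice by their labels. Chi-square per degree of freedom between libraries of a group was 7.21 to 19.1, so none was a copy or a plain resampling of another's counts. A second library of the same RNA cannot be told apart this way. Values at or below 3 counts in all 7 libraries of a region were treated as a floor, and folds against them are lower bounds that cover counting error only. The records of the 23037 genes held 4025499 to 8858937 counts per library, of 17027335 to 36070045 over all records. Apart from the filter and the Tulp4 excess, cpm values rest on the records of the genes tested. The symbols Efna3, Egr2, Grin2d, Grm6 and Syt5 were not analysed here. Some further genes are not reported here and were left out of the leading genes, lists and pairs.

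Because 6 mice gave both regions, a paired fit was possible. Deviations of the paired libraries from their group means correlated at -0.0127 to 0.0886 over genes. Fits with the mouse as a replicate block, DESeq2 1.42.0, limma-voom (limma 3.58.1), other filters and each library left out were run as alternatives.

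Genes named in the text were up to 12 leading genes per direction with at least 50 cpm in the higher region and the same direction in 6 mice, without 14 predicted genes, up to 3 called genes per direction in each of 36 lists with the member nearest to 0 and those at the floor, both genes of 22 pairs, and the 3 leading noncoding records per direction. Libraries, lists and pairs were chosen with earlier results of these data known, and other list members were named after their values were seen. Promoter sequences are from RefSeq.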

Additional observations from a re-analysis of the deposited data

Results flagged for a closer look

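In each region the 7 libraries were searched for a highest or lowest value whose gap to the nearest library exceeded the share of the whole range that Dixon's test sets at its 95% critical value. Over 456 gene and region groups 46 stood out. For independent, normally distributed values about 1 in 20, or 22.8, would do so. These are unlogged levels of related genes, some at few counts (Cacng8 in hippocampus rests on 1 count). The 22.8 is therefore not their chance expectation, and no excess over chance is read from it. All values are in cpm.

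WT hippocampus m244 held 11 of them. It was lowest for Cadps2 (46.0), Calm2 (1716), Fibcd1 (36) and Homer1 (68.7), and highest for Camk2b (1180.5), Cnpy1 (2.33), Fat2 (0.895), Nectin3 (23.8), Ppp1r1b (74.1), Prlr (68.0) and Sostdc1 (83.4). WT cerebellum m244, from the same mouse, held 8, and was highest for Cacng2 (927), Cpne4 (1.93), Etv1 (1079), Myo5b (2.46), Ncan (4.92), Nrgn (496), Pax2 (13.3) and Tfap2b (49.5).

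CD hippocampus m118 was lowest for Ddn (998) and Slc6a17 (88.5) and highest for Gria2 (1178) and Hes3 (2.37). CD hippocampus m138 was highest for Barhl1 (0.484) and Lmo3 (273), WT hippocampus m162 for Epha5 (78.4) and Rora (33.5), WT hippocampus m240 for Cnp (1727) and Gdf10 (3.48), CD hippocampus m190 for Cacng8 (0.154) and CD hippocampus m242 for Nr1d2 (93.9).

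WT cerebellum m240 was highest for Cacna1g (23.5), Cbln4 (0.963), Opalin (53.2) and Ttr (91.5) and lowest for Nefh (196). CD cerebellum m242 was highest for Btg2 (10.1) and Gabra4 (17.6) and lowest for Gdf10 (18.9) and Lhx1os (185). CD cerebellum m118 was highest for Fosb (3.18) and Rims3 (57.1), CD cerebellum m190 for Dsp (3.25) and WT cerebellum m164 for Tulp4 (24.8). WT cerebellum m162 was lowest for Sox9 (298) and was the only cerebellum with any count of Rgs14 (0.157).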

How the results depend on the processing

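Counts of called genes moved by over 1.5 times in 3 settings. Without a filter on low counts 3782 of 22058 genes were called, 2310 of them higher in hippocampus. With the fold itself tested against 2, 1585 genes were called, 649 of them higher in cerebellum, and among named genes Acta2, Agt, Amigo2, Cacng2, Cnr1, Dusp1, Ephb2, Glul, Gria2, Grik4, Grin2a, Grm2, Homer1, Kcnd2, Mbp, Neto2, Nr1d2, Nr3c2, Prox1, Rgs9, Slc17a7, Sncg and Vamp1 lost their calls. With every distinct transcript record kept, 3906 of 17386 were called, 1731 higher in cerebellum and 2175 in hippocampus. The other settings gave 2021 (5 cpm in at least 7 libraries) to 2539 genes (all 22 libraries), with 2464 in DESeq2, 2316 in WT and 2404 in CD libraries alone. Leaving out 1 library at a time gave 2411 to 2451 genes, 1048 to 1093 higher in cerebellum and 1353 to 1385 higher in hippocampus. For the region by genotype interaction that range was 0 to 1, and 49 genes passed without a filter.

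With the mouse as a fixed replicate block 2437 genes were called, of which 2394 were also called without it, and with the mouse as a random block in limma-voom 2451 (consensus correlation 0.0215). Among named genes the block ended the calls of Rgs9 (-0.96, fixed) and Prlr (-4.57, random) and changed no other call. In the whole choroid plexus list 4 genes were called with the random block, against 7 in the main fit. The interaction with the fixed block gave 0 genes, with 578 of 10890 at an unadjusted p under 0.05. With no interaction in any gene that share would be about 0.05.

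Of 6060 recomputed differences of named genes 5969 kept direction and call, 37 lost and 13 gained the call. The direction turned in 41, all of genes that were not called. In CD libraries alone Cplx2 (0.12), Gad2 (-0.17), Kcnma1 (-0.035), Otx2 (-0.20), Tcf7l2 (0.012) and Tek (0.031) turned. In WT libraries alone Adgrb3 (-0.18) and Cacna1i (0.066) did, as did Ephb1 (-0.0095) and Tek (0.059) with the fixed block, Adgrb3 (-0.012) with the random block, Tek (0.020) without the genotype term, and Adgrb3 (-0.077) and Sox9 (0.041) without the 3 hippocampi of high Ttr. With 1 library left out the ranges spanned 0 for Adgrb3 (-0.062 to 0.098), Cplx2 (-0.17 to 0.013), Ephb1 (-0.014 to 0.10), Gad2 (-0.023 to 0.14), Kcnma1 (-0.035 to 0.079), Otx2 (-0.13 to 0.74), Sox9 (-0.17 to 0.011), Sv2a (-0.0064 to 0.084), Tcf7l2 (-0.096 to 0.078) and Tek (-0.097 to 0.10). The causes of these changes were not tested. With 5 cpm in at least 7 libraries 5 choroid plexus genes were tested and 3 called. Genes that did not reach 5 cpm in 2 libraries on the record kept were not tested at this depth, so no call is given for them. Low counts on that record do not show that a gene is not expressed.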
